A study of Homo sapiens with 9 samples.

Results

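The genes described here are the plasma membrane and lysosomal carriers of amino acids in T47D human breast cancer cells. They were taken as the single-symbol probe sets whose gene symbol starts with SLC1A, SLC3A, SLC6A, SLC7A, SLC36A, SLC38A or SLC43A, with the probe set of the highest mean standing for a gene. This gave 59 genes of the 18417 that had a single-symbol probe set. The symbol rule also brought in SLC7A6OS, a gene on the opposite strand to SLC7A6 that is no carrier, the monoamine carriers SLC6A2, SLC6A3 and SLC6A4, and the creatine carrier SLC6A8.

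All 9 samples were T47D-pHUSH-Elf5-shRNA cells, which hold a retroviral vector with a doxycycline-induced short hairpin RNA against ELF5 and were kept under puromycin. ELF5 is an ETS transcription factor of the mammary epithelium, and the study asked to what degree it carries the progestin response of the transcriptome. There were 3 groups of 3 arrays: ethanol vehicle, with no time stated; the synthetic progestin ORG2058 at 10 nM over 4 days, which the labels name progesterone; and the same progestin treatment over 4 days together with doxycycline at 0.1 µg/ml. Each sample pooled cells from 3 wells. Neither doxycycline without progestin nor a control hairpin was among the groups, so an effect of doxycycline itself and one of the hairpin cannot be told apart. No batch was labelled, and a batch or a difference in time that coincided with a group cannot be told apart from the treatment.

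Amino acids cross membranes through carriers that differ in substrate and in driving force. Sodium-coupled carriers such as those of SLC38A and SLC1A concentrate neutral or acidic amino acids in the cell, while the exchangers of SLC7A trade one amino acid for another and need a heavy chain, SLC3A2 or SLC3A1, to reach the membrane. Leucine and glutamine brought in this way feed protein synthesis and the nutrient sensing of the kinase mTORC1 at the lysosome, and mammary epithelium draws on such carriers for growth and milk protein synthesis.

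The promoter stretches of 4 carriers are shown because they are the 3 members called with a change of at least 2-fold with progestin, namely SLC7A8, SLC38A1 and SLC36A4, and SLC7A5, the close relative of SLC7A8 that changed the other way. Each runs 5′ to 3′ on the gene's strand over the 250 bases before the start that RefSeq gives on GRCh38.p14. All 4 genes lie on the minus strand. SLC7A8 is at chr14:23155321-23155570, SLC38A1 at chr12:46266517-46266766, SLC36A4 at chr11:93197992-93198241 and SLC7A5 at chr16:87869508-87869757. Capitals mark a GC box (GGGCGG, searched on both strands, so CCGCCC on the strand shown) or a TATA motif (TATAAA).
SLC7A8: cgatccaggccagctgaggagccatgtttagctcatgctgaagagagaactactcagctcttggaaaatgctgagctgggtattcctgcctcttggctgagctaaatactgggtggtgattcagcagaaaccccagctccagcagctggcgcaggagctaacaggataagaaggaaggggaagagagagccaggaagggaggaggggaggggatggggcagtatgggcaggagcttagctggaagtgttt
SLC38A1: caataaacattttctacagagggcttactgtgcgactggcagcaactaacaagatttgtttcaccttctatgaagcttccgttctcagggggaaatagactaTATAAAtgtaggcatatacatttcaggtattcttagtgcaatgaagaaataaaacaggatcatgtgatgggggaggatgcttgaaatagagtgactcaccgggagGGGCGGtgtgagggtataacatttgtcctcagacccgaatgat
SLC36A4: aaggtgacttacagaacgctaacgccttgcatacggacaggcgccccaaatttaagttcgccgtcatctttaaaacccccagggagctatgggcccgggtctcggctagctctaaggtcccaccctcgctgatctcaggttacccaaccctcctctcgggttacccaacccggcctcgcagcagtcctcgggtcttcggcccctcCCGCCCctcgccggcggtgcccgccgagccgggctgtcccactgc
SLC7A5: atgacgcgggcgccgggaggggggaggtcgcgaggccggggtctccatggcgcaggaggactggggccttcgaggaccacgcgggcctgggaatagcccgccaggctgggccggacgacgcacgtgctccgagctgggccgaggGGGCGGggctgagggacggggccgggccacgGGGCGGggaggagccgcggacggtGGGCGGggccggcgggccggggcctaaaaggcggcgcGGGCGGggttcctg

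The stretches differed widely in composition. GC content was 54.8% for SLC7A8 with 2 CpG dinucleotides, 42.4% for SLC38A1 with 5, 64% for SLC36A4 with 21 and 79.6% for SLC7A5 with 34, against a median of 58% and 11 over all 27305 promoters of the table. SLC7A5 held 4 GC boxes, SLC38A1 and SLC36A4 each held 1, and SLC7A8 held none. A GC box was in the promoters of 26 of the 46 members that the table covers (56.5%) and in 42.3% of all promoters. The 46 windows were also richer in GC, with a median of 64.2% and 14.5 CpG, and the part of this in the GC box share was not tested. The palindromic progesterone response element, GNACA and TGTNC parted by 3 bases, was in the window of 1 member, SLC38A11, and in 0.33% of all promoters, and the ATF4 motif TGATGNAA was in that of 1 member, SLC1A3, and in 3.19%. The ETS motif CCGGAAG was in 4 members' windows and in 8.82% of all promoters. These matches are a description of the letters in these windows.

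With progestin 12 of the 59 members passed the test (20.3%), beside 29.0% of all probe sets. SLC7A and SLC38A held calls in both directions, SLC1A, SLC6A and SLC36A only falls, SLC43A only a rise and SLC3A none. The test was limma's moderated test with Benjamini-Hochberg adjustment over all 21214 probe sets that carry a gene symbol, at an adjusted p of 0.05; every adjusted p below is from it unless another setting is named. The 4 that rose were SLC7A8, SLC38A1, SLC43A2 and SLC38A2 (6.78% of members), where 13.4% of all tested probe sets rose. The 8 that fell were SLC36A4, SLC6A6, SLC7A5, SLC7A6OS, SLC38A3, SLC6A12, SLC1A2 and SLC6A14 (13.6%), where 15.6% of all tested probe sets fell. In either direction the background was 29.0%, above the members' 20.3%. The gap depended on the setting. After quantile normalization 8 of the 59 members rose and 11 fell, where 15.1% and 17.3% of all probe sets did, or 32.4% in either direction. The members' median log2 change was 0.04, with 31 positive and 28 negative, beside 0.02 over all probe sets. No filter on low values was applied, so all 59 were tested. In RNA from whole cultures, fewer cells that express a gene and less of its RNA per cell cannot be told apart.

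The deposited values are log2 expression, and the median of the named probe sets was 7.19 to 7.28 on each array. Of the 59 members, 20 lay above it on all 9 arrays (33.9%), as did 43.8% of all named probe sets. These were SLC1A4 and SLC1A5; the heavy chain SLC3A2; SLC6A6, SLC6A8 and SLC6A9; SLC7A1, SLC7A5, SLC7A6, SLC7A6OS, SLC7A8 and SLC7A10; SLC36A4; SLC38A1, SLC38A2, SLC38A6, SLC38A9, SLC38A10 and SLC38A12; and SLC43A2. A further 7 were above it on some arrays: SLC7A11 on 8, SLC36A1 on 7, SLC1A6 on 5, SLC7A4 on 4, SLC43A1 and SLC6A20 on 3, and SLC7A9 on 1. The other 32 were above it on none. Against the median of all 33297 probe sets, 6.40 to 6.58 on each array, 29 members lay above on all arrays, the added 9 being SLC1A6, SLC36A1, SLC38A7, SLC43A1, SLC6A18, SLC6A20, SLC7A4, SLC7A9 and SLC7A11. Lying above the median of an array is not proof of expression, and lying below it is not proof of absence, since probe sets differ in how brightly they bind.

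**Figure D1:**
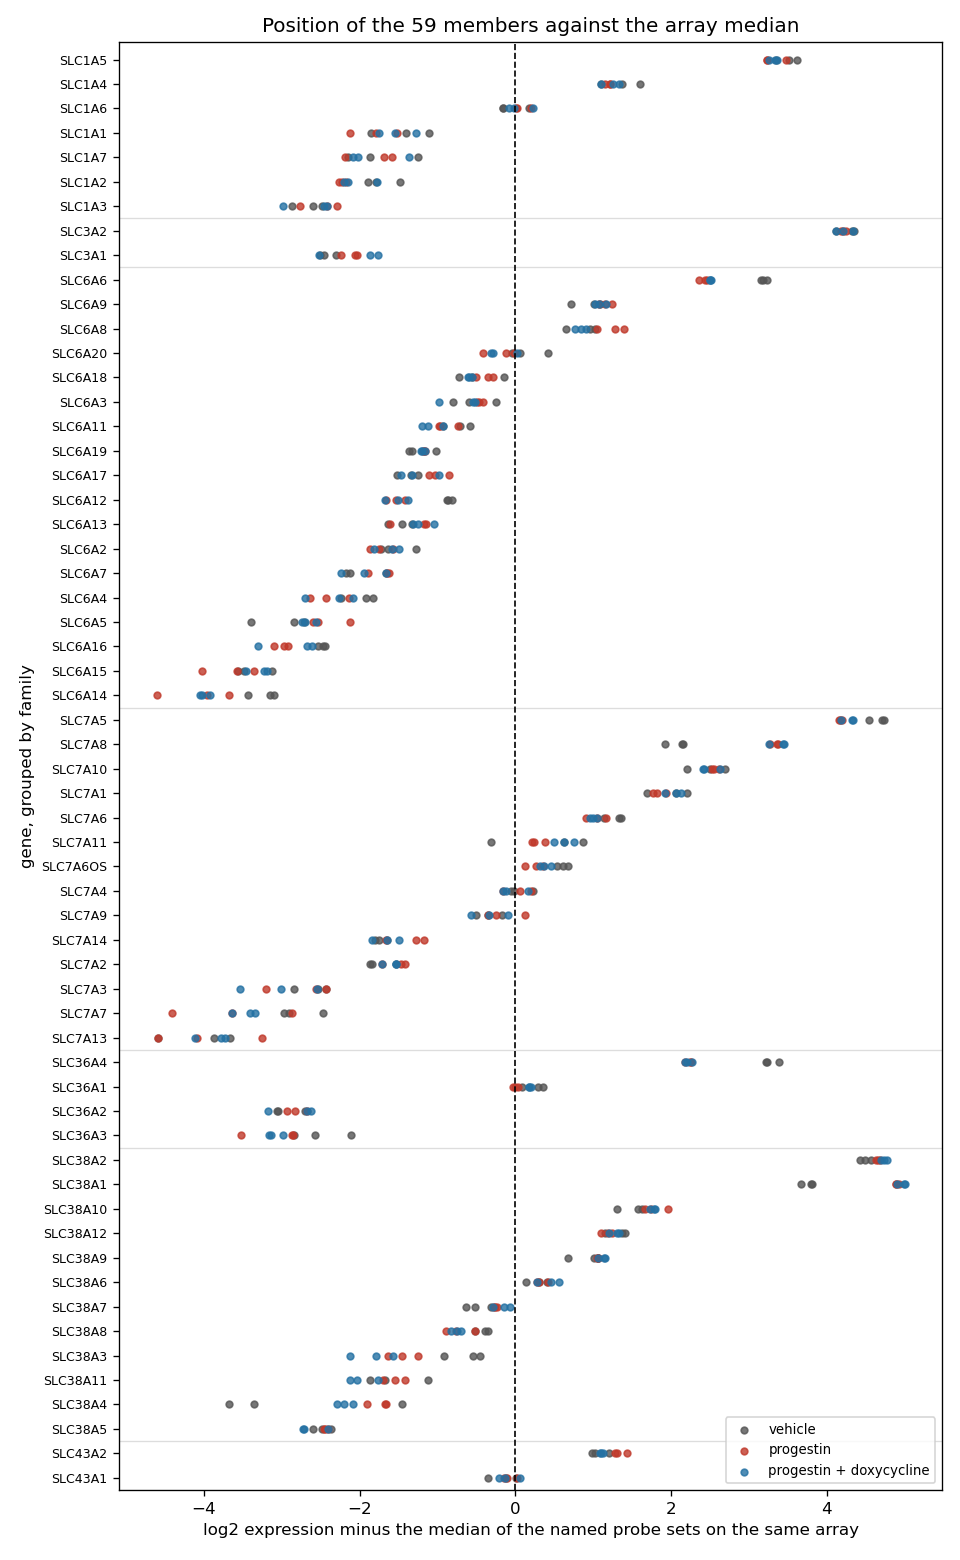
Horizontal axis, log2 expression minus the median of the named probe sets on the same array; vertical axis, the 59 members grouped by family, with 1 point per array coloured by treatment group. The 20 members whose 9 points all lie right of 0 are those above the array median throughout.

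Among the 20 members above the array median throughout, 4 rose and 4 fell (20.0% each), where 16.8% and 23.9% of the probe sets above the median did. The standard error of the log2 change ranged from 0.0638 to 0.133 in these 20 members and from 0.0836 to 0.5 in the other 39.

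The array check of the design concerned ELF5 itself. ELF5 read 10.26, 10.21 and 10.05 with vehicle, 11.31, 11.23 and 11.31 with progestin, and 10.44, 10.46 and 10.35 with progestin plus doxycycline. It rose by 1.11 log2 units with progestin (adjusted p = 2.06e-05), and with doxycycline it was 0.87 lower than with progestin alone (log2 change -0.87, adjusted p = 0.029). This second call was lost with any array other than vehicle replicate 3 left out (adjusted p 0.0715 to 0.149) and with only the 2 groups fitted (0.175), although the groups did not overlap. It held in 6 of 16 settings, among them 16 added to the linear values (0.00336), and the log2 change was -0.93 to -0.83 throughout. With progestin plus doxycycline ELF5 stayed 0.24 log2 units above vehicle, a difference called only in some alternative settings, such as quantile normalization (0.0109). Rank correlation over the named probe sets was 0.989 to 0.995 between arrays of a group and 0.949 to 0.993 between groups. All 9 luminal marker genes were above the array median on every array, and their summed linear values were 34210 to 35330 with vehicle, 34310 to 34930 with progestin and 34100 to 36520 with doxycycline added. Of 14 measured stromal, endothelial and immune markers 2 were above it (COL1A1 and CDH5; summed values 1495 to 1725, 1659 to 1777 and 1573 to 1804 in the same order), and of 6 measured basal markers 1 was (KRT14; 629.3 to 712.3, 669 to 731.9 and 621.2 to 721.2). Single markers changed with progestin: of the luminal ones KRT19 rose (log2 change 0.46, adjusted p = 0.000838), and GATA3 (-0.51, 0.00161), ESR1 (-0.50, 0.00196) and the progesterone receptor gene PGR (-2.28, 2.96e-07) fell. Of the stromal, endothelial and immune markers PECAM1 and CDH5 rose and COL1A1 fell, and of the basal markers KRT5 and CNN1 rose and ACTA2 fell. The part of these changes in those of the carriers was not tested.

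Among the heterodimeric exchangers, the light chain SLC7A8 rose, the light chain SLC7A5 fell, and the heavy chain SLC3A2 was not called. SLC7A8 encodes LAT2, a light chain that exchanges large and small neutral amino acids and is abundant in kidney and gut epithelium. It read 9.35, 9.33 and 9.12 on the vehicle arrays, 10.56, 10.57 and 10.60 on the progestin arrays, and 10.69, 10.71 and 10.53 with doxycycline added. All progestin-treated arrays were above all vehicle arrays, and the 2 progestin-treated groups overlapped. The rise with progestin was 1.31 log2 units, or 2.48-fold (SE 0.09, 95% interval 1.11 to 1.51, adjusted p = 1.64e-05).

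SLC7A5 encodes LAT1, the light chain that imports leucine and other large neutral amino acids into many dividing cells. Its values were 11.93, 11.92 and 11.73 with vehicle, 11.45, 11.36 and 11.42 with progestin, and 11.57, 11.59 and 11.46 with progestin and doxycycline. Every vehicle array was above every progestin-treated array. It fell by 0.45 log2 units with progestin, a 1.36-fold change (log2 change -0.45, SE 0.08, 95% interval -0.63 to -0.27, adjusted p = 0.00328). The log2 change of SLC7A8 thus exceeded that of SLC7A5 by 1.76, a difference of changes and not of levels.

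SLC3A2, the CD98 heavy chain shared by both, read 11.54, 11.54 and 11.32 with vehicle, 11.47, 11.42 and 11.47 with progestin, and 11.45, 11.60 and 11.39 with doxycycline added. The groups overlapped, and the log2 change with progestin was -0.02 (95% interval -0.22 to 0.19, adjusted p = 0.92), so a change beyond about those bounds was not seen. SLC3A1, the heavy chain that pairs with SLC7A9 for cystine uptake in kidney, lay below the array median throughout, at 4.70, 4.89 and 4.74 with vehicle, 5.26, 5.15 and 4.98 with progestin and 5.49, 5.41 and 4.75 with doxycycline added. Its log2 change of 0.35 did not pass the test (95% interval -0.07 to 0.78, adjusted p = 0.204), but did without doxycycline replicate 3, which enters through the shared variance (adjusted p = 0.0328).

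SLC7A11, the xCT light chain that brings in cystine in exchange for glutamate, was not called. It read 7.84, 8.05 and 6.89 with vehicle, 7.52, 7.42 and 7.60 with progestin, and 7.87, 8.02 and 7.78 with doxycycline added. Vehicle replicate 3 stood well below the other vehicle arrays. The log2 change with progestin was -0.08 (95% interval -0.69 to 0.53, adjusted p = 0.858), and without vehicle replicate 3 it was -0.43 and passed the test (adjusted p = 0.0239). SLC7A6, whose product exchanges cationic and neutral amino acids, had a log2 change of -0.20 (95% interval -0.41 to 0.02, adjusted p = 0.169), and SLC7A10, a small neutral amino acid exchanger, one of 0.14 (adjusted p = 0.503). In all, 1 of the 8 light chains rose and 1 fell. These and the family counts that follow stand beside 13.4% of all probe sets higher and 15.6% lower.

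SLC7A1, the cationic amino acid carrier that needs no heavy chain, had a log2 change of -0.11 (95% interval -0.42 to 0.19, adjusted p = 0.583). None of the 5 SLC7A carriers of that kind was called. SLC7A6OS read 7.83, 7.86 and 7.73 with vehicle and 7.55, 7.33 and 7.58 with progestin, with no overlap, and fell by 0.32 (log2 change -0.32, adjusted p = 0.03). RefSeq places it next to SLC7A6, which was not called. Its call was lost without vehicle replicate 1 (0.0926) or 2 (0.0935) and without progestin replicate 1 (0.0537) or 2 (0.0862), and with only the 2 groups fitted (0.0602), the values being adjusted p.

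**Figure D2:**
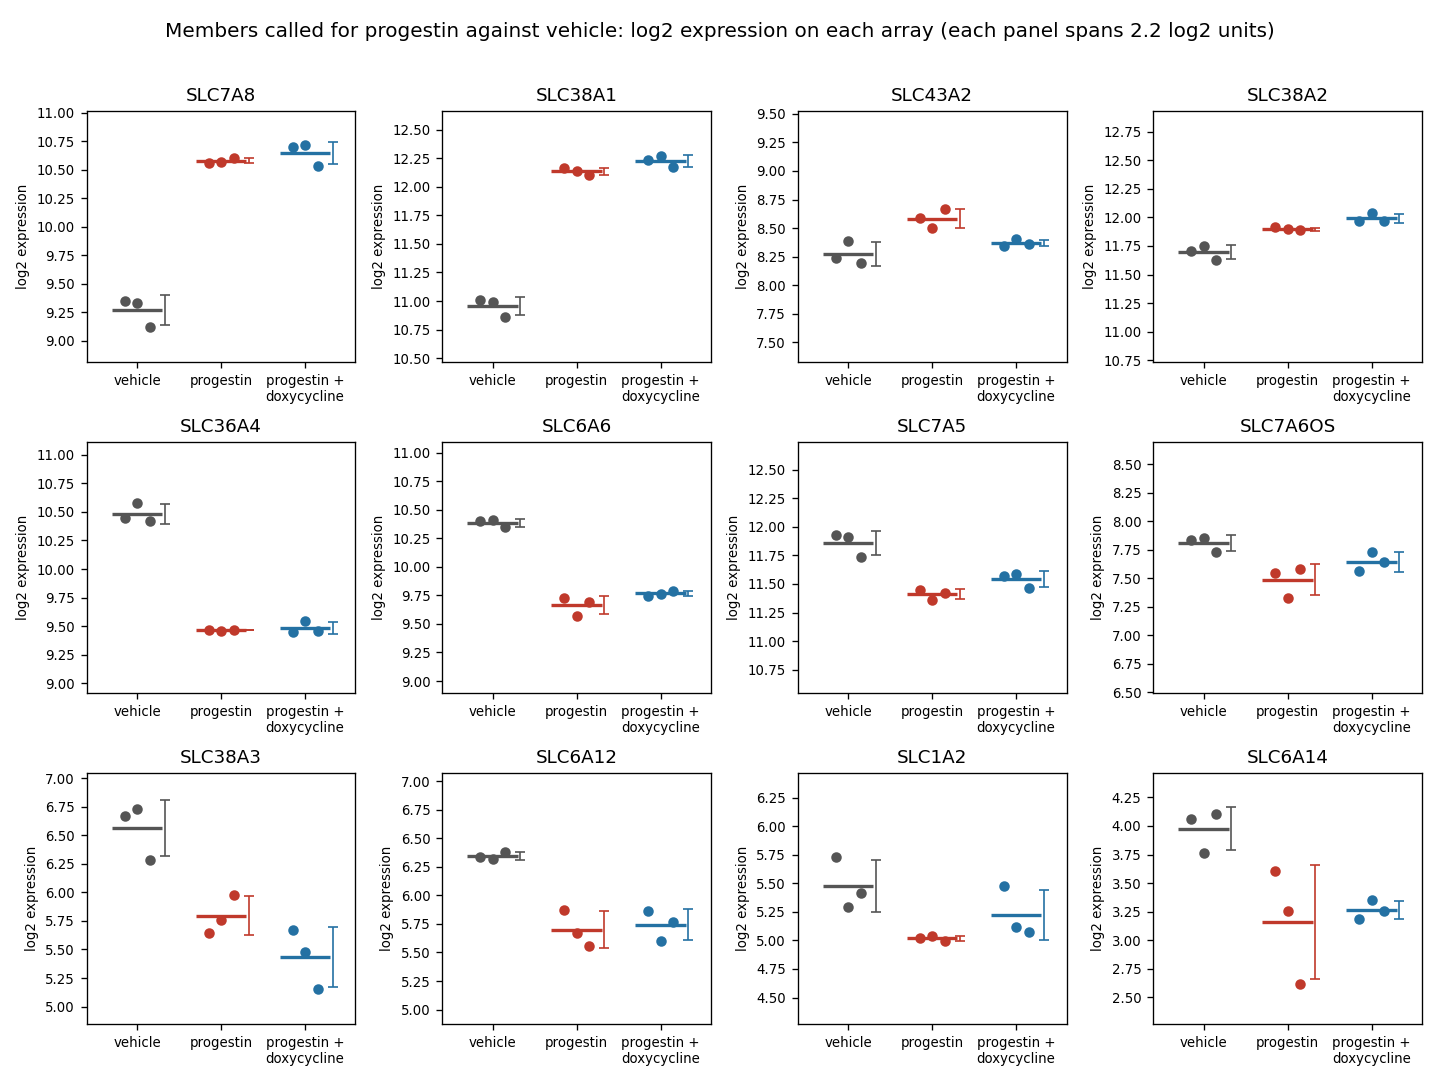
Vertical axes, log2 expression, each panel spanning the same number of log2 units; horizontal axis, the 3 treatment groups, with 1 point per array and a bar at the group mean. Each panel is 1 of the 12 members called for progestin against vehicle; SLC7A8 and SLC38A1 sit higher in both progestin-treated groups and SLC36A4, SLC6A6 and SLC7A5 lower.

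The sodium-coupled SLC38A carriers included the second large rise. SLC38A1 encodes SNAT1, a sodium-coupled importer of glutamine, alanine and other small neutral amino acids. It read 11.01, 10.99 and 10.86 with vehicle, 12.17, 12.13 and 12.11 with progestin, and 12.24, 12.27 and 12.17 with doxycycline added. Every progestin-treated array was more than 1 log2 unit above every vehicle array. The rise with progestin was 1.18 log2 units, or 2.27-fold (SE 0.07, 95% interval 1.02 to 1.34, adjusted p = 8.31e-06).

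SLC38A2 encodes SNAT2, a sodium-coupled carrier of the same substrates that cells raise when amino acids are scarce. It read 11.71, 11.75 and 11.63 with vehicle, 11.91, 11.90 and 11.89 with progestin, and 11.97, 12.04 and 11.97 with doxycycline added, and no progestin-treated array overlapped a vehicle array. It rose by 0.20 log2 units, or 1.15-fold (95% interval 0.06 to 0.35, adjusted p = 0.0454), and the call was lost with any 1 of the 9 arrays left out (adjusted p 0.0562 to 0.125), with only the 2 groups fitted (0.0952) and with 16 added to the linear values (0.056). SLC38A1, SLC38A2 and SLC38A4 follow each other on chromosome 12 in RefSeq with no protein-coding gene between them. SLC38A4, which lay below the array median throughout and is named here for this position after its values were seen, read 5.76, 3.83 and 3.52 with vehicle and 5.63, 5.54 and 5.32 with progestin. The vehicle arrays of SLC38A4 spanned more than the difference between the groups, and its log2 change of 1.12 was not called (SE 0.50, adjusted p = 0.137), though it was called higher without vehicle replicate 1.

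SLC38A3 encodes SNAT3, a glutamine carrier of liver, kidney and brain. It lay below the array median throughout, at 6.67, 6.73 and 6.28 with vehicle, 5.65, 5.76 and 5.98 with progestin, and 5.67, 5.48 and 5.15 with doxycycline added. All vehicle arrays were above all others. It fell by 0.77 log2 units with progestin, a 1.70-fold change (log2 change -0.77, 95% interval -1.16 to -0.38, adjusted p = 0.0103).

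Of the 12 SLC38A carriers, 2 rose and 1 fell, where 13.4% and 15.6% of all probe sets did. A positive change was found in 9 of them (75%), with a median of 0.14, and in 52% of all probe sets, with a median of 0.02. The count of 9 takes in dim and uncalled members. In the other carrier groups that share ran from 25% of 4 SLC36A carriers to 100% of 2 SLC43A carriers. It was 53.8% in the 13 SLC6A amino acid carriers and 28.6% in the 7 SLC1A carriers. SLC38A10 had a log2 change of 0.33 with no overlap and missed the threshold (95% interval 0.07 to 0.59, adjusted p = 0.0604); it passed without progestin replicate 2 (0.042), after quantile normalization (0.0136) and in 3 other settings. SLC38A7, a lysosomal carrier of glutamine and asparagine, read 6.70, 6.87 and 6.56 with vehicle and 7.03, 6.98 and 6.95 with progestin. Its change of 0.28 was not called (95% interval 0.06 to 0.50, adjusted p = 0.062) but was without vehicle replicate 2 (0.0315). SLC38A9, the lysosomal arginine sensor of mTORC1, changed by 0.18 (adjusted p = 0.241), SLC38A6 by 0.10 (0.534) and SLC38A12 by -0.09 (0.532), none of which passed the test.

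The SLC36A carriers gave the largest fall among the members above the array median. SLC36A4 encodes PAT4, a carrier of proline and tryptophan. It read 10.45, 10.58 and 10.42 with vehicle, 9.47, 9.46 and 9.47 with progestin, and 9.45, 9.54 and 9.46 with doxycycline added. The vehicle arrays stood apart from both other groups, which overlapped. It fell by 1.02 log2 units with progestin, or 2.02-fold (log2 change -1.02, SE 0.07, 95% interval -1.17 to -0.86, adjusted p = 1.77e-05). The other 3 members of this family, whose genes lie next to each other on chromosome 5 in RefSeq, were not called.

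In the SLC6A family of sodium- and chloride-coupled carriers, 3 of the 13 amino acid carriers fell and none rose, where 15.6% of all probe sets fell and 13.4% rose. The call of SLC6A14, a dim probe set among the 3, was lost in 5 settings. SLC6A6 encodes TauT, the carrier of taurine and beta-alanine. Its values were 10.40, 10.41 and 10.35 with vehicle, 9.73, 9.57 and 9.69 with progestin, and 9.75, 9.77 and 9.79 with doxycycline added, with the vehicle arrays above all others. The fall with progestin was 1.65-fold (log2 change -0.72, SE 0.07, 95% interval -0.88 to -0.57, adjusted p = 9.72e-05).

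SLC6A12 encodes BGT1, the carrier of betaine and GABA, and like TauT a carrier of an osmolyte. It lay below the array median, at 6.34, 6.32 and 6.38 with vehicle, 5.87, 5.67 and 5.56 with progestin and 5.87, 5.60 and 5.77 with doxycycline added. Its groups did not overlap between vehicle and progestin, and it fell 1.56-fold (log2 change -0.65, 95% interval -0.88 to -0.41, adjusted p = 0.00188). SLC6A13, its neighbour on chromosome 12 in RefSeq and another GABA carrier, was not called (log2 change 0.20, 95% interval -0.14 to 0.55, adjusted p = 0.365).

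SLC6A14 encodes ATB0,+, a broad importer of neutral and cationic amino acids. Its probe set was dimmer than all but 3.83% of the named probe sets, at 4.06, 3.76 and 4.11 with vehicle and 3.61, 3.26 and 2.62 with progestin. The log2 change of -0.82 passed the test (adjusted p = 0.0273), and it shrank to -0.34 where 16 was added to the linear values. The call was lost without vehicle replicate 1 (adjusted p = 0.0829) or 3 (0.0759) without progestin replicate 2 (0.0541), with only the 2 groups fitted (0.0677) and under robust estimation with a variance trend (0.0776).

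Of the SLC6A members that carry other substrates, none was called. The creatine carrier SLC6A8 read 8.18, 7.84 and 8.23 with vehicle, 8.56, 8.26 and 8.63 with progestin, and 8.09, 8.18 and 8.04 with doxycycline added, so the progestin arrays were above all others. Its log2 change with progestin was 0.40 (95% interval 0.10 to 0.71, adjusted p = 0.0539), and it passed without vehicle replicate 3 (0.0469) or progestin replicate 2 (0.0253) and in 4 other settings. Near-identical SLC6A10P copies exist, and signal from them cannot be told apart here. SLC6A9, the glycine carrier GLYT1, had a change of 0.26 with no overlap that was not called (adjusted p = 0.122).

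Among the 7 SLC1A carriers of glutamate and neutral amino acids, 1 fell. SLC1A5 encodes ASCT2, a sodium-dependent exchanger of glutamine. It read 10.73, 10.81 and 10.55 with vehicle, 10.52, 10.45 and 10.70 with progestin, and 10.60, 10.61 and 10.54 with doxycycline added. The groups overlapped and the log2 change with progestin was -0.14 (95% interval -0.36 to 0.08, adjusted p = 0.337). SLC1A4, the related carrier ASCT1 of alanine and serine, had a change of -0.12 (95% interval -0.41 to 0.16, adjusted p = 0.521).

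SLC1A2, the glutamate carrier of astrocytes, lay below the array median at 5.73, 5.29 and 5.42 with vehicle, 5.02, 5.04 and 5.0 with progestin, and 5.47, 5.12 and 5.08 with doxycycline added. Its log2 change of -0.46 with progestin passed the test (adjusted p = 0.0387). That call was lost without vehicle replicate 1 (0.116) or 3 (0.0617), without any progestin replicate (0.0829 to 0.0909) without doxycycline replicate 2 (0.0513) and under robust estimation with a variance trend (0.0818), the values being adjusted p.

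SLC43A2 encodes LAT4, a carrier that lets large neutral amino acids pass down their gradient without exchange. It read 8.23, 8.39 and 8.19 with vehicle, 8.59, 8.50 and 8.66 with progestin, and 8.35, 8.40 and 8.36 with doxycycline added. The progestin arrays were above all others, and the doxycycline arrays lay within the vehicle range or just above it. The rise with progestin was 0.31 log2 units, or 1.24-fold (95% interval 0.13 to 0.49, adjusted p = 0.0186), and was lost without vehicle replicate 1 (0.0694) or progestin replicate 1 (0.0579) or 3 (0.0615), and with only the 2 groups fitted (0.0522).

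Of the 12 calls with progestin, 7 held under every alternative setting tried, including each array left out in turn: SLC7A8, SLC38A1, SLC36A4, SLC6A6, SLC7A5, SLC38A3 and SLC6A12. Vehicle replicate 3 was the lowest of its group for 18 of the 20 members above the array median (90.0%), beside 73.2% of the probe sets above it. Progestin replicate 2 was the lowest of its group for 16 (80.0%, beside 57.9%). Those 7 calls stood without either array. By groups that did not overlap, 23 of the 59 members differed between vehicle and progestin (39.0%), beside 42.3% of all named probe sets.

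Adding doxycycline to the progestin moved no member past the test. None of the 59 rose or fell by limma's adjusted p, where 4 of the 21214 probe sets did (0.0189%, with 0.00943% in each direction), and none did under any alternative. At an unadjusted p under 0.05 the count was 3 of 59 (5.08%), beside 2969 of all probe sets (14%). The log2 changes ran from -0.42 to 0.38 with a median of 0.02, and the median over all probe sets was 0.03. In 14 members the 2 groups did not overlap (23.7%, beside 21.2% of all named probe sets). Of these, 9 were higher with doxycycline and 5 lower, where 14.8% of all named probe sets were higher and 6.43% lower.

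For the carriers above the array median whose progestin call held in every setting, the intervals bound the change with doxycycline. That of SLC7A8 was 0.07 (95% interval -0.13 to 0.27, adjusted p = 0.777), that of SLC38A1 was 0.09 (-0.07 to 0.25, adjusted p = 0.616) and that of SLC36A4 was 0.02 (-0.14 to 0.18, adjusted p = 0.941). SLC6A6 changed by 0.10 (-0.05 to 0.26, adjusted p = 0.536) and SLC7A5 by 0.13 (-0.05 to 0.31, adjusted p = 0.504), neither past the test. Each of these intervals excludes a change as large as the one with progestin. SLC38A3 and SLC6A12, whose progestin calls also held, lay below the array median. With doxycycline SLC38A3 changed by -0.36 (adjusted p = 0.39), the direction of its progestin change, and SLC6A12 by 0.04 (adjusted p = 0.896).

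The 3 members with an unadjusted p under 0.05 were SLC6A8, SLC43A2 and SLC36A1, and in none did the groups overlap. SLC6A8 was lower with doxycycline (log2 change -0.38, 95% interval -0.69 to -0.07, adjusted p = 0.276), as was SLC43A2 (-0.21, -0.40 to -0.03, adjusted p = 0.294). SLC36A1, the lysosomal PAT1 carrier of small amino acids, was higher (0.21, 0.02 to 0.40, adjusted p = 0.325). None of these differences passed the adjustment.

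**Figure D3:**
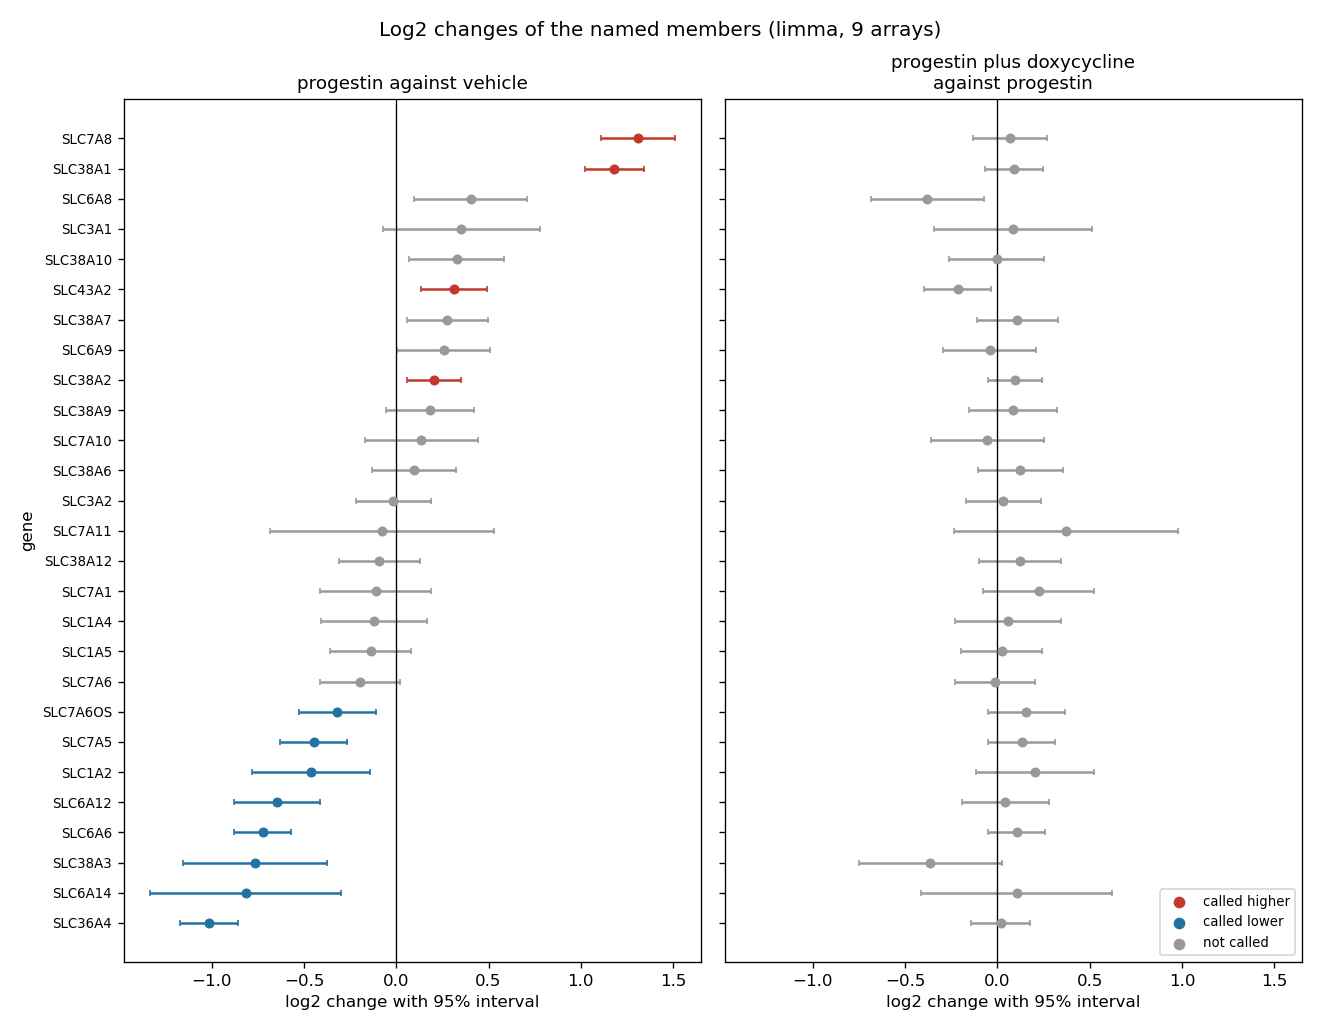
Horizontal axes, log2 change with its 95% interval from limma over 9 arrays; vertical axis, the named members, with the panels giving the comparisons. SLC7A8 and SLC38A1 lie above 1 and SLC36A4 below -1 for progestin against vehicle, while for doxycycline added to progestin no member was called.

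Set against vehicle, the cells with progestin plus doxycycline had 4 members called higher, SLC38A1, SLC38A2, SLC38A7 and SLC7A8, where 15.6% of all probe sets rose, and 6 called lower, SLC36A4, SLC38A3, SLC6A6, SLC6A12, SLC6A14 and SLC7A5, where 12.5% fell. In either direction 28.1% of all probe sets were called. Groups did not overlap for 20 of the 59 members (33.9%), beside 41.8% of all named probe sets. This comparison shares its vehicle arrays with that of progestin alone, so the values stand side by side only. The log2 change was 1.38 for SLC7A8 (adjusted p = 1.06e-05), 1.27 for SLC38A1 (4.75e-06), 0.30 for SLC38A2 (0.00864), -1.0 for SLC36A4 (1.63e-05), -0.62 for SLC6A6 (0.000221) and -0.60 for SLC6A12 (0.00262). SLC38A3 had a log2 change of -1.13, a 2.19-fold fall (adjusted p = 0.00137).

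The other calls in this comparison were less firm. SLC38A7 rose by 0.39 (adjusted p = 0.0167), lost without vehicle replicate 1 (0.0555) or doxycycline replicate 1 (0.0504) or 2 (0.0593). SLC7A5 fell by 0.32 (log2 change -0.32, adjusted p = 0.0172), lost without vehicle replicate 1 (0.0705) or 2 (0.0623) or doxycycline replicate 3 (0.0627). SLC6A14 had a change of -0.71 (adjusted p = 0.0475) that was lost in 9 settings. SLC43A2 was not called here (0.10, adjusted p = 0.437), and neither was SLC1A2 (-0.26, adjusted p = 0.231) or SLC7A6OS (-0.16, adjusted p = 0.24). SLC3A1 was called without doxycycline replicate 3, at 0.67 (adjusted p = 0.00425), and not with it, at 0.44 (adjusted p = 0.126).

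Genes that act around these carriers were counted for progestin against vehicle in lists chosen by function, beside the same background of 13.4% higher and 15.6% lower. The lists were drawn up with earlier results of these data known, so the counts are a description and not a test of a pathway. Of the probe sets above the array median on all 9 arrays, 16.8% were called higher and 23.9% lower. Of 20 other carriers of amino acids and peptides, among them mitochondrial, vesicular and lysosomal ones, 3 rose and 2 fell, with a median log2 change of -0.04. The mitochondrial glutamate carrier SLC25A18 rose by 2.11 (adjusted p = 1.65e-05) and the peptide and histidine carrier SLC15A3 by 1.5 (0.000116), while the aspartate-glutamate carrier SLC25A13 had a change of -1.26 (1.57e-05) and the ornithine carrier SLC25A15 one of -0.78 (0.000743).

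Of 29 measured genes of mTORC1 amino acid sensing and of the control of mTORC1, 4 rose and 3 fell, with a median of 0.01. DDIT4, an inhibitor of mTORC1 also known as REDD1, rose by 1.48 (adjusted p = 7.94e-06) and the arginine sensor CASTOR1 by 0.69 (0.00106). The activating GTPase RHEB had a change of -0.32 (0.00935) and the folliculin gene FLCN one of -0.52 (0.00973). Of 17 measured genes of glutamine, glutamate and glutathione metabolism, 5 rose and 4 fell, with a median of 0.01. Glutamine synthetase GLUL rose by 0.77 (0.000116), the glutathione synthesis gene GCLC by 0.59 (0.00145) and the proline oxidase PRODH by 0.63 (0.00224), and the glutathione peroxidase GPX4 had a change of -0.46 (0.00536). All these values are adjusted p of the same fit.

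Of 20 measured cytosolic tRNA synthetase genes, which load amino acids for translation, 2 rose and 9 fell, with a median of -0.21. All 20 lay above the array median on every array, where 23.9% of all such probe sets fell. QARS1 had a log2 change of -0.50 (adjusted p = 0.00124), LARS1 -0.42 (0.00382), FARSB -0.41 (0.00943) and KARS1 -0.34 (0.00829). Of 12 genes of the GCN2-ATF4 response to amino acid shortage, 6 rose and 2 fell, with a median of 0.39. Of the 12, 9 lay above the array median on every array, where 16.8% of all such probe sets rose and 23.9% fell. Whether amino acids were short in these cells was not tested. DDIT3 rose by 1.09 (0.00209), NUPR1 by 1.05 (8.78e-05) and CEBPB by 0.47 (0.00082), whereas the sensor kinase EIF2AK4 (GCN2) had a change of -0.47 (0.00164) and ATF4 itself was not called (-0.25, 0.0914). With doxycycline added to progestin, 0 genes of any of these 5 lists were called by limma's adjusted p. Progestin plus doxycycline against vehicle, which shares the vehicle arrays, gave 2 higher and 3 lower of the other carriers, 8 and 2 of the mTORC1 genes, 4 and 3 of the glutamine and glutathione genes, 2 and 5 of the tRNA synthetases and 7 and 1 of the GCN2-ATF4 genes. In that comparison 15.6% of all probe sets were higher and 12.5% lower.

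**Figure D4:**
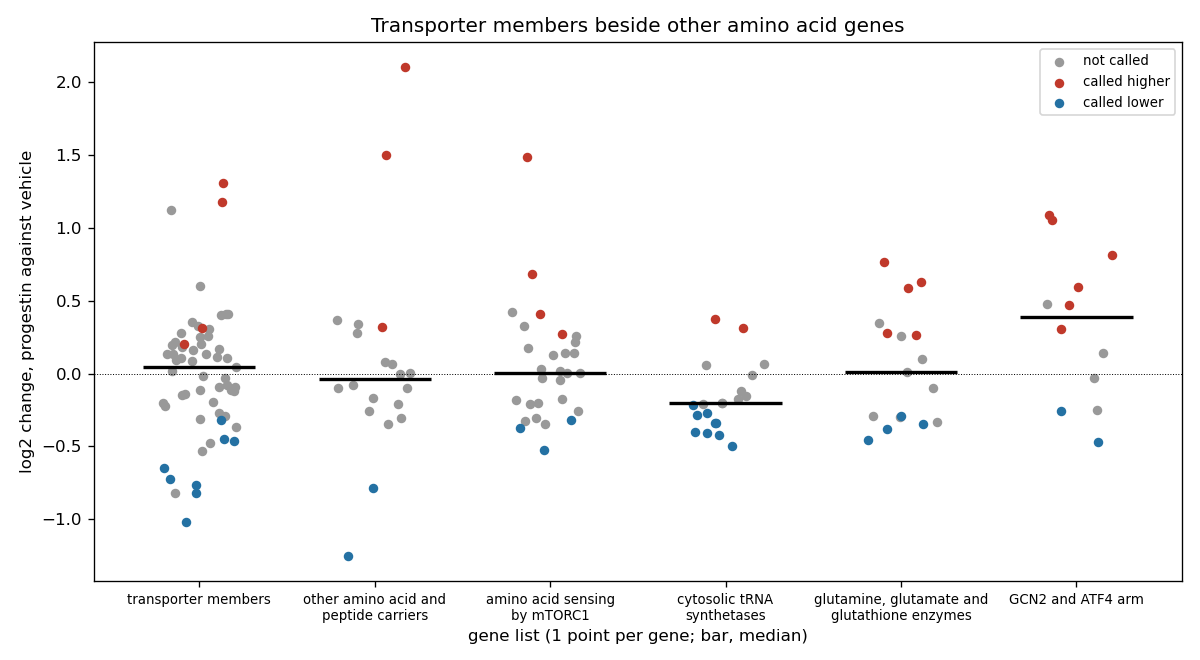
Vertical axis, log2 change for progestin against vehicle; horizontal axis, the carriers and 5 gene lists, with 1 point per gene and a bar at the median. The medians lie near 0 for the carriers (0.04), lowest for the tRNA synthetases (-0.21) and highest for the GCN2-ATF4 genes (0.39).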

How the data were processed

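Values were used as the authors deposited them, 1 log2 expression value per probe set and array of the Affymetrix HuGene-1_0-st-v1 array. PLIER, limma, Affymetrix Expression Console and Affymetrix Power Tools appear in the submitters' processing notes without a role or version; the sources used here give neither normalization nor genome build. The log2 scale was inferred from the range of the values. Of 33297 probe sets, 19460 had 1 gene symbol in the platform annotation, 1754 several and 12083 none; 4 probe sets with a carrier symbol beside another were left out. All 59 members matched RefSeq (GRCh38.p14) by gene identifier, and 46 had a promoter in the table used.

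Each comparison was fitted with limma 3.58.1 in R 4.3.3 (lmFit and eBayes) on all 9 arrays, with 1 mean per group and Benjamini-Hochberg adjustment over 21214 probe sets with a symbol; the procedure was tested on simulated data. An exact permutation test of 3 arrays against 3 cannot go below 0.1. The design text calls the replicates independent experiments, and the p-values reflect only how these 9 arrays spread, whose number limits the precision.

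The members and gene lists were chosen with earlier results of these data known. Named were every member called in any comparison, every member above the array median on all arrays, both heavy chains and the light chains SLC7A5, SLC7A8 and SLC7A11, up to 4 genes of each list by smallest p among those called, and ELF5; exceptions are said in place. Alternatives were quantile normalization, leaving out the dimmest 25% of probe sets, a variance trend with robust estimation, adding 16 to linear values, only the 2 groups compared, a replicate block, the mean of a gene's probe sets, and each array left out in turn.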

Additional observations from a re-analysis of the deposited data

How the results depend on the processing

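For progestin against vehicle, the 4 members called higher became 9 without the dimmest 25% of probe sets (41 members tested), 8 after quantile normalization, 7 with 16 added to the linear values, 2 with the replicate block, and 2 to 5 with each array left out in turn. Over all probe sets 13.4% were called higher, and in the same order 19.1%, 15.1%, 14.1%, 11.7% and 9.76% to 12.9%. The 8 members called lower became 5 to 9 with each array left out. Over all probe sets 15.6% were called lower, and 11.2% to 15.9% with each array left out. Against vehicle, progestin plus doxycycline had 6 members called lower, 10 after quantile normalization and 4 to 6 with an array left out, and 4 called higher, 3 to 5 with an array left out. Doxycycline added to progestin gave 0 members in every setting, while the count over all probe sets went from 4 to 530 with a variance trend and robust estimation, 158 without the dimmest 25%, 15 with 16 added and 0 with the replicate block. Of the named members, 7 of 12 calls for progestin and 7 of 10 for progestin plus doxycycline held under every alternative, and 0 reversed; the causes of the changes were not tested. The 20 members above the array median were also 20 after quantile normalization and with the mean of a gene's probe sets, and 29 against the median of all probe sets of the table.

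The main fit did not pair samples by replicate number. Deviations from the group means correlated at -0.238 to 0.478 in the 9 same-numbered pairs, with 3 of 9 over 0.1. In the 18 other pairs they correlated at -0.501 to 0.301. The highest values were for vehicle with progestin plus doxycycline, at replicate 2 (0.478) and replicate 3 (0.477). These values cannot decide whether the samples were paired, because deviations within a group of 3 arrays sum to 0 and so depend on each other. With the replicate block, progestin against vehicle gave 2 members higher and 8 lower, beside 11.7% and 13.6% of all probe sets. Progestin plus doxycycline against vehicle gave 4 and 5, beside 13.8% and 10.9%. Doxycycline added to progestin gave 0 and 0, beside 0% and 0%. The block ended the progestin calls of SLC43A2 (adjusted p = 0.0504), SLC7A6OS (0.0735) and SLC38A2 (0.0832) and, for progestin plus doxycycline against vehicle, that of SLC6A14 (0.0746), as well as that of ELF5 for doxycycline added to progestin (0.203).

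The standard error of the log2 change was at most 0.133 in the 20 members above the array median and up to 0.5 in the others, the latter in SLC38A4, whose vehicle arrays were far apart. Signal over background was not measured.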
